A study of Homo sapiens with 8 samples.

Results

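The HOX genes of the 4 human clusters, HOXA, HOXB, HOXC and HOXD, were followed in G401, a cell line of rhabdoid kidney tumor origin. These cells do not make SMARCB1, which is part of the SWI/SNF complexes that remodel chromatin. Members were all protein-coding genes whose symbol is HOX, a cluster letter from A to D and a number. There were 39 of them among the 69215 genes listed in the count files, 11 in HOXA, 10 in HOXB, 9 in HOXC and 9 in HOXD. Total RNA was sequenced from 2 libraries in each of 4 groups. SMARCB1 Dox and SMARCB1 DMSO were G401 cells with a Tet-On SMARCB1 transgene, kept for 12 h with doxycycline (Dox) at 0.1 µg/ml or with the solvent alone, dimethylsulfoxide (DMSO). GFP Dox and GFP DMSO were G401 cells with GFP under the same system, treated alike. All 4 groups therefore lack SMARCB1 of their own. SMARCB1 is thus switched on by Dox and not from its own promoter. Several plates per condition were pooled before RNA was taken, and whether the lines are clones is not given in the sources used here. The study's methods speak of duplicate experiments but, like the labels, do not say whether the 2 libraries of a group came from separate cultures, so p-values measure only the spread between these libraries, which may be technical.

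HOX genes encode homeodomain transcription factors that give cells their position along the body axis. Within a cluster all genes point the same way, and their order on the chromosome mirrors the order in which they are switched on in the embryo, from low-numbered genes in anterior tissue to high-numbered genes in posterior tissue and in the limbs and urogenital tract. Genes of the same number in different clusters are paralogues and form a paralogue group. Polycomb complexes keep HOX genes silent, trithorax-type complexes keep them active, and SWI/SNF proteins of the fly belong to the trithorax group, which opposes Polycomb at homeotic genes. The genes of paralogue group 11 are known for their part in kidney development.

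On GRCh38, HOXA lies on the minus strand of chromosome 7 (107.1 kb) and HOXB on the minus strand of chromosome 17 (chr17:48528526-48728750, 200.2 kb). HOXC lies on the plus strand of chromosome 12 (chr12:53938831-54056030, 117.2 kb) and HOXD on the plus strand of chromosome 2 (chr2:176092721-176190907, 98.2 kb). Each of the 39 genes holds a homeobox of 180 bases within 1 exon, found in the coding sequence of its main GENCODE v44 transcript. Within a paralogue group the homeoboxes were 69.4% to 90.6% identical over 42 pairs, with a median of 81.7%. Between different groups of the same cluster they were 47.8% to 91.1% identical over 172 pairs, with a median of 61.4%. The homeoboxes of group 13 are shown because the members of this group differed in their response below. Capitals mark bases that differ from HOXA13, whose own sequence is therefore in lower case, and all are written 5′ to 3′ on the coding strand.

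HOXA13, chr7:27198222-27198401, minus strand: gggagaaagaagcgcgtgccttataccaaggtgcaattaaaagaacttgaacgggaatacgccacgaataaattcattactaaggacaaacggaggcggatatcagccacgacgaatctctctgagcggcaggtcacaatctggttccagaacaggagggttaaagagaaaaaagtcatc
HOXB13, chr17:48726820-48726999, minus strand: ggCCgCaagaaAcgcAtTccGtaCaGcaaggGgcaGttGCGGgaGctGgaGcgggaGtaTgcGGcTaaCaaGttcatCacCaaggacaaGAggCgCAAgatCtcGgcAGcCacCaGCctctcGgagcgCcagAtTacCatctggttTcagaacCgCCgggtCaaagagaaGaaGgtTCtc
HOXC13, chr12:53945041-53945220, plus strand: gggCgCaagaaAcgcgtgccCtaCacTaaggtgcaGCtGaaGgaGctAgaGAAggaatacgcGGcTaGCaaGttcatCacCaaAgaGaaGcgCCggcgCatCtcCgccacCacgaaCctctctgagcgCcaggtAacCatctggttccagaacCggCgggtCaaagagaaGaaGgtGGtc
HOXD13, chr2:176094524-176094703, plus strand: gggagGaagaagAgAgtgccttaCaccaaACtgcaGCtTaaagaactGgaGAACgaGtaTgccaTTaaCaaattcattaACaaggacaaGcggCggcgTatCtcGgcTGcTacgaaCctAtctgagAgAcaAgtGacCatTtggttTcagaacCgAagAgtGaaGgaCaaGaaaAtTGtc

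HOXB13 differed from HOXA13 at 55 of the 180 bases (69.4% identity), HOXC13 at 43 (76.1%) and HOXD13 at 48 (73.3%).

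Promoter sequences of RefSeq (GRCh38.p14), from 250 bases before to 50 bases after a gene's start, covered 20 of the 39 genes in 27 windows. Of these windows 7 belong to HOXA3, and HOXC4 and HOXC5 share 1, so 1 window per gene was taken, the first listed, and identical windows were counted once. This left 19 HOX windows, against 27168 of all genes. Of HOXB only HOXB1 was covered, and of HOXC only HOXC4 and HOXC5, so the values below describe mostly HOXA and HOXD. Their median GC content was 58.0% against 58.3%, and they held a median of 23 CpG pairs against 13. TATAAA was present on either strand in 21.1% of the HOX windows and 12.0% of all windows. The sequence TTTATNG, of the kind bound by posterior HOX proteins and CDX proteins, was present in 21.1% and 10.1%, and TAATTA, a general homeodomain core, in 10.5% and 4.99%. CCAAT was present in 84.2% and 35.7%. For the 4 sequences in this order, the HOX shares stand for 4, 4, 2 and 16 windows. These are matches of letters, and no binding was measured here. The windows of HOXA13 and HOXD8 are shown, since these genes gave the largest differences between the Dox effects and between the lines, respectively. Capitals mark CpG pairs, of which HOXA13 holds 44 at a GC content of 76.3% and HOXD8 34 at 71.7%.

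HOXA13, chr7:27200042-27200341, minus strand: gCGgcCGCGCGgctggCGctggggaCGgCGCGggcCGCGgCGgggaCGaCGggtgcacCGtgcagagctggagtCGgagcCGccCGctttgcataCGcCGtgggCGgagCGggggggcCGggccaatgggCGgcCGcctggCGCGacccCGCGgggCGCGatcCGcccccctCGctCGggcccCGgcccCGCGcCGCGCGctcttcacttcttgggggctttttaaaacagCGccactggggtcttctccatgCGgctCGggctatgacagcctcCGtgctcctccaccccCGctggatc
HOXD8, chr2:176129455-176129754, plus strand: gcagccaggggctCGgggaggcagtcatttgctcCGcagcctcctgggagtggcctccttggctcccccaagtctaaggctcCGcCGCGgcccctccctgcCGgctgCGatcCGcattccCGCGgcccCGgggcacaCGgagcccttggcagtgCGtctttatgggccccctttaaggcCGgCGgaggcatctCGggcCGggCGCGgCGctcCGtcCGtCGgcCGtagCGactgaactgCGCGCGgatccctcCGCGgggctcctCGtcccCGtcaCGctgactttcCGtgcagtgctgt

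The libraries held 29632090 to 37597477 counts assigned to genes, and mitochondrially encoded genes took 18.9% to 27.9% of them, the most in SMARCB1 DMSO replicate 1. SMARCB1 had 30474 and 29383 counts in SMARCB1 Dox, 10 and 21 in SMARCB1 DMSO, and 0 in each GFP library. The rhabdoid line markers VIM, KRT8 and KRT18 summed to 1570 to 1920 CPM in every library, where CPM are counts scaled to the library size by the trimmed mean of M values (TMM). Of 6 kidney progenitor markers, SIX2 and WT1 had 0 counts in all libraries and EYA1, SALL1 and OSR1 at most 4, so the labelled kidney origin is not visible in these markers. PAX2 was the exception with 240 to 385 counts in the GFP line and 16 to 43 in the SMARCB1 line. The epithelial, endothelial and muscle lists summed to 0 to 0.916 CPM and the immune list, nearly all CD68, to 1.06 to 3.08 CPM. In bulk RNA, fewer cells with a transcript and less transcript per cell cannot be told apart.

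Nearly all HOX RNA in these G401 cells came from 3 of the 4 clusters. All 39 genes summed to 444 ± 10.7 CPM in GFP DMSO, 440 ± 6.97 in GFP Dox, 632 ± 13 in SMARCB1 DMSO and 576 ± 12.8 in SMARCB1 Dox (SD, n = 2 here and below). HOXA genes gave 170 ± 8.96, 167 ± 3.14, 180 ± 3.77 and 166 ± 5.87 CPM in the same order, so their sum lay within a narrow range in all groups. HOXB genes gave 134 ± 1.48 and 130 ± 6.14 CPM in the GFP line but 258 ± 0.156 and 215 ± 9.29 CPM in the SMARCB1 line. HOXC genes gave 138 ± 3.44, 141 ± 4.05, 186 ± 11 and 190 ± 2.36 CPM. HOXD genes gave 1.16 ± 0.17 and 1.21 ± 0.0841 CPM in the GFP line and 7.87 ± 2.0 and 6.52 ± 0.0361 CPM in the SMARCB1 line. HOXD thus made up 0.23% to 1.49% of the HOX RNA of a library, and HOXB 29.0% to 41.5%. A comparison of 2 libraries with 2 cannot go below a p of 0.33 in an exact permutation test, so these sums are given without one.

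**Figure D1:**
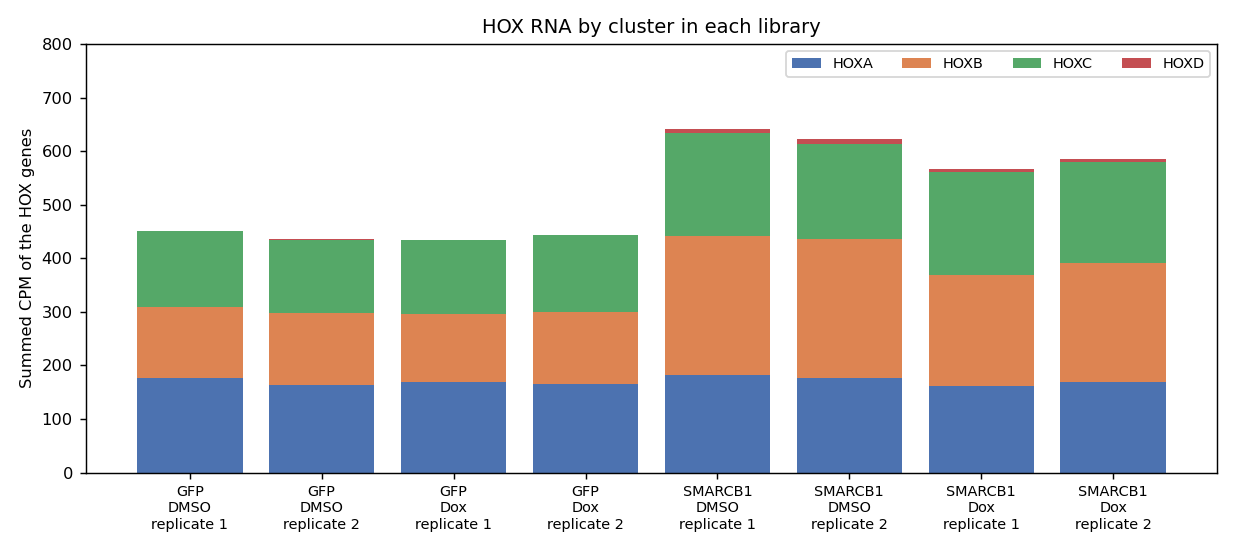
Summed CPM of the HOX genes (vertical axis, linear from 0) in each of the 8 libraries, stacked by cluster. The HOXB part is 125.9 to 134.9 CPM in the 4 GFP libraries and 208.0 to 258.4 CPM in the 4 SMARCB1 libraries, and the HOXD part is visible only as a thin band.

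Levels of different genes were compared per kb of exon (RPKM, here CPM divided by the exon length in kb), as a mean over the 8 libraries. HOXB13, which acts in the prostate and the tail end of the embryo, stood at 22.2 RPKM, and HOXB9, a thoracic patterning gene, at 20.9. They were followed by HOXC8 (18.5), HOXC10 (18.4), HOXA9 (17.3), HOXC13 (16.7) and HOXA7 (14.6). HOXB7 (8.5), HOXB8 (4.67) and HOXC11 (4.62) were lower, and HOXA3, of anterior position, stood at 3.69. In HOXD no gene exceeded 0.68 RPKM, the mean of HOXD8. HOXC8 and HOXC10, neighbours in this order, did not differ beyond their spread over the libraries (16.1 to 22.1 and 15.7 to 23.3 RPKM).

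The exons of many HOX genes overlap other annotated genes, so the order depends on the length used. Dividing by the exon bases shared with no other gene moved HOXA7 from rank 7 to rank 1, at 38.8 RPKM, since 904 of its 2411 exon bases are its own. HOXA9 rose to 23.7 and stood at rank 2, and HOXB13 stayed at 22.2. If only genes on the same strand are considered, all exon bases of HOXA7 are its own and it stays at 14.6 RPKM and rank 7, while HOXA9 stands at 20.6 and rank 3. HOXC5 has 527 of 1611 exon bases to itself and HOXD1 752 of 1886, and both had low counts. HOXA4 (902 of 1728) and HOXA6 (770 of 1285) are likewise uncertain. Reads that 2 overlapping genes share were not assigned by the counter, and whether strand was used is not given in the sources used here.

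Along HOXA, HOXC and HOXD the mean levels over the 8 libraries rose and fell without a single gradient. In HOXB they were highest at the high-numbered end, though they did not rise from every gene to the next. In HOXA, HOXA7 and HOXA9 were high while HOXA2 (0.61 RPKM), HOXA4 (0.412) and HOXA13 (0.429) were low. In HOXB the level was 0 at HOXB1, 2.0 to 2.83 RPKM from HOXB2 to HOXB6, and 20.9 and 22.2 at HOXB9 and HOXB13. From HOXB2 to HOXB6 it was 0.877 to 2.26 RPKM in GFP DMSO and 2.91 to 5.07 in SMARCB1 DMSO. In HOXC, HOXC8, HOXC10 and HOXC13 were high. HOXC12 (0.127), which lies between HOXC10 and HOXC13, was close to absent, and so was HOXC5 (0.0203), on the other side of HOXC8. In HOXD only HOXD8, HOXD4 (0.484) and HOXD9 (0.442) exceeded 0.4 RPKM.

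**Figure D2:**
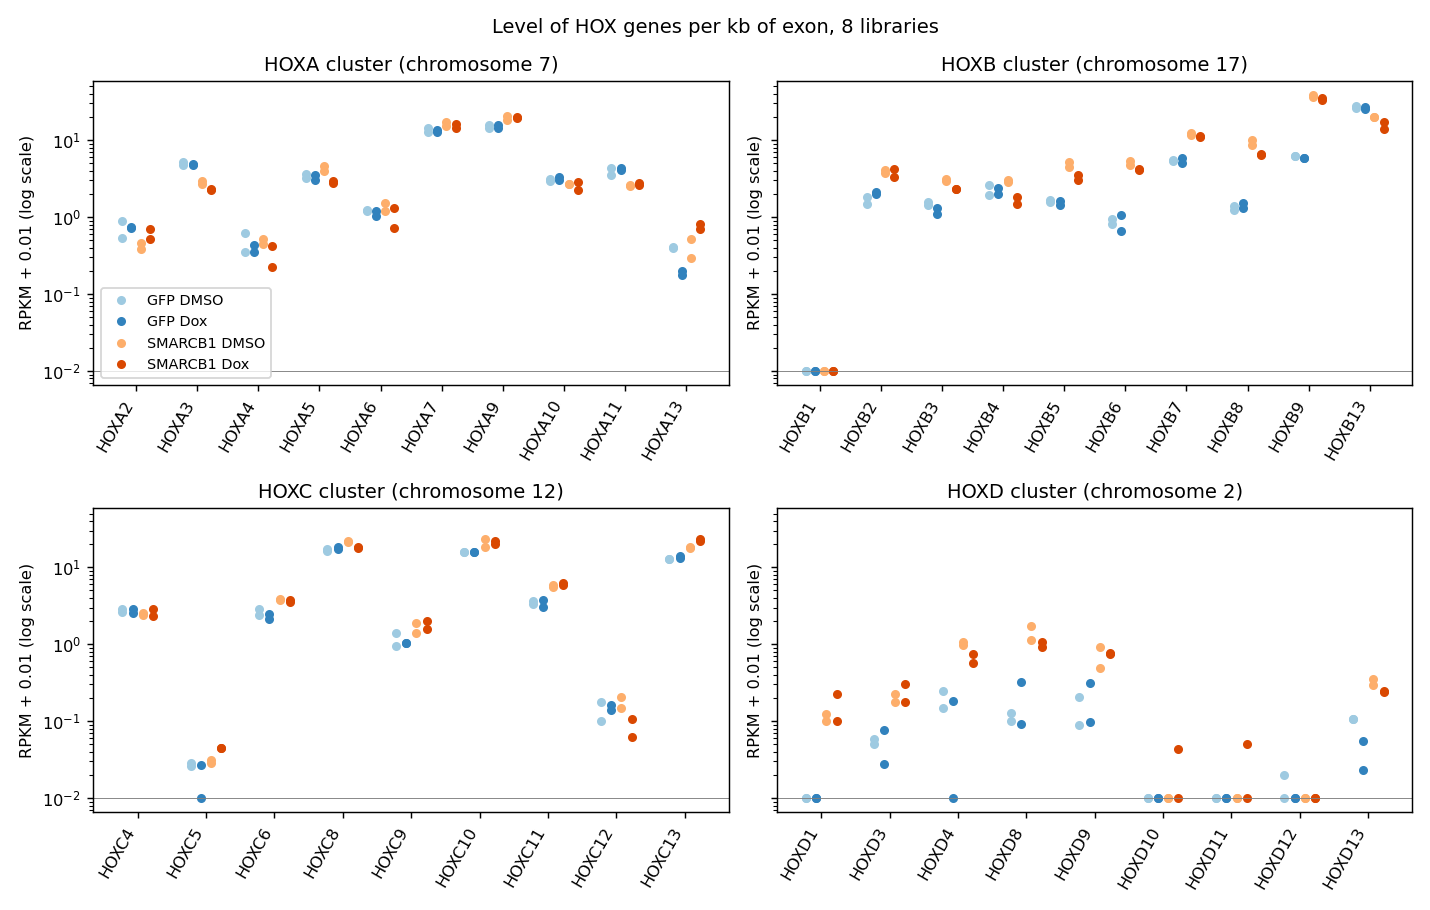
Level of 38 HOX genes per kb of exon (vertical axis, RPKM + 0.01, logarithmic) by cluster and gene number, with 1 point per library coloured by group and the grey line at a count of 0. HOXB1 lies on the line in all 8 libraries, and most HOXB points of the SMARCB1 line lie above those of the GFP line. No HOXD gene exceeds 1.73 RPKM in any library.

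HOXB1 had 0 counts in all 8 libraries, which allows up to 0.0782 to 0.103 CPM in a library (3 counts, counting error only). Another 5 genes did not pass the filter on low counts and were not tested. HOXC5 had 0 to 2 counts per library. HOXD10, HOXD11 and HOXD12 had 3, 3 and 1 counts over all libraries, each in a single library. HOXD1 had no count in the 4 GFP libraries, 5 and 7 counts in SMARCB1 DMSO and 6 and 14 after Dox in that line. The 33 genes tested were all 11 of HOXA, 9 of HOXB, 8 of HOXC and 5 of HOXD.

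The Dox effect in the SMARCB1 line was read from SMARCB1 Dox against SMARCB1 DMSO. It holds the effect of re-expressed SMARCB1 together with any effect of Dox itself. Of the 33 tested HOX genes, 10 passed the edgeR quasi-likelihood test (adjusted p under 0.05, Benjamini-Hochberg, here and below), 2 higher and 8 lower, whereas 14.0% of all 15931 tested genes were called, 8.33% higher and 5.69% lower. HOXA13 and HOXC13 rose. Those that fell included HOXA5, HOXB3, HOXB4, HOXB5, HOXB8, HOXB13 and HOXC8. The median log2 fold change was -0.135 over the 33 genes and -0.004 over all genes. The decreases lay mostly in HOXB, where 5 of 9 tested genes were called, all lower, and the other 4 had negative estimates. Scaling to library totals in place of TMM left 5 calls, 2 higher and 3 lower, made 1 of the 9 HOXB estimates positive, and moved the median of all genes from -0.004 to 0.088. With library totals the calls over all genes were 1986 higher and 497 lower in place of 1327 and 907.

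Both genes that rose belong to paralogue group 13. HOXA13, which patterns the distal limb and the urogenital tract, had 42 and 85 counts in SMARCB1 DMSO and 123 and 144 in SMARCB1 Dox, that is 1.44 and 2.58 CPM against 3.46 and 4.12 CPM. The groups did not overlap, although the 2 DMSO libraries differed from each other by more than the lower Dox library did from the higher DMSO library. Its log2 fold change was 0.90, with 0.253 as standard error (SE) (adjusted p = 0.0191). HOXC13, known for its role in hair and nail keratin genes, had 42.6 and 41.4 CPM in SMARCB1 DMSO and 51.8 and 55 CPM in SMARCB1 Dox. Its libraries were close within each group, and the log2 fold change was 0.35 with an SE of 0.085 (adjusted p = 0.00795). Removing a GC trend from each library gave 11 called HOX genes, 1 higher and 10 lower, and HOXC13 was then not called.

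The third expressed gene of the group went the other way. HOXB13 had 60.9 and 60.6 CPM in SMARCB1 DMSO and 42.1 and 51.7 CPM in SMARCB1 Dox, a log2 fold change of -0.37 with an SE of 0.092 (adjusted p = 0.00828). The groups did not overlap, and the 2 Dox libraries lay further apart than the DMSO libraries. HOXD13 had 20 and 27 counts against 20 and 20, and was not called (log2 fold change -0.41, SE 0.456).

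Within HOXB, the largest change was that of HOXB4, which is known for expanding blood stem cells. It had 5.97 and 5.67 CPM in SMARCB1 DMSO and 3.65 and 2.98 CPM in SMARCB1 Dox, a log2 fold change of -0.81 with an SE of 0.19 (adjusted p = 0.00561). HOXB5, which acts in the gut nervous system, had 8.37 and 9.68 CPM against 5.62 and 6.58 CPM, a log2 fold change of -0.57 with an SE of 0.159 (adjusted p = 0.019). In both genes every Dox library was below every DMSO library. HOXB8, a gene of the spinal cord and of blood progenitors, had 21.0 and 24.2 CPM against 15.5 and 16.1 CPM, a log2 fold change of -0.52 with an SE of 0.123 (adjusted p = 0.00612). HOXB3, a hindbrain gene, had 21.8 and 23.0 CPM against 17.3 and 17.3 CPM, a log2 fold change of -0.37 with an SE of 0.115 (adjusted p = 0.0333). HOXB2, HOXB6, HOXB7 and HOXB9 were not called, with log2 fold changes of -0.05, -0.29, -0.09 and -0.14. The groups overlapped for HOXB2 alone, but for HOXB7 the nearest libraries stood at 17.4 (Dox) and 17.5 CPM (DMSO). How many of all tested genes have separate groups was not determined.

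HOXA5 and HOXC8 fell as well. HOXA5, which acts in lung development, had 7.96 and 6.76 CPM in SMARCB1 DMSO and 4.75 and 5.01 CPM in SMARCB1 Dox, a log2 fold change of -0.59 with an SE of 0.162 (adjusted p = 0.0161). HOXC8, a gene of the thoracic region, had 53.5 and 51.8 CPM against 43.9 and 42.6 CPM, a log2 fold change of -0.28 with an SE of 0.084 (adjusted p = 0.0268). Both were separated between the groups, and HOXC8 had the smallest change of the 10. HOXA9, HOXA7 and HOXC10, which were among the highest genes per kb, had log2 fold changes of 0.01, -0.07 and 0.04 and overlapping groups. By position, 2 of 6 tested genes of groups 1 to 3 were called and 5 of 14 of groups 4 to 8, all lower. Of 13 tested genes of groups 9 to 13, 2 were called higher and 1 lower. Over all genes 14.0% were called, 8.33% higher and 5.69% lower. None of the 5 tested HOXD genes was called by edgeR or had an unadjusted p under 0.05.

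**Figure D3:**
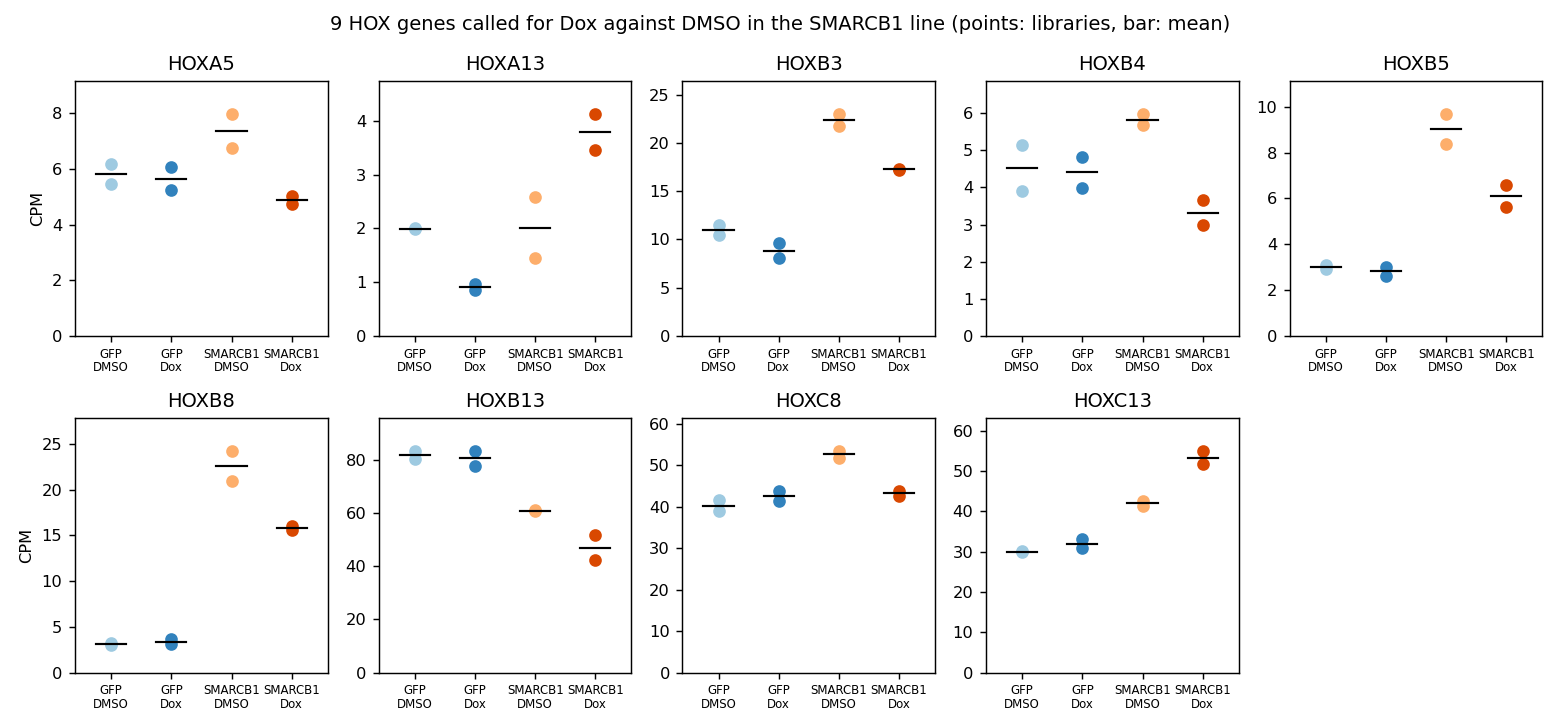
CPM (vertical axes, linear from 0, scaled per gene) of 9 HOX genes called for Dox in the SMARCB1 line, with 1 point per library and a bar at the group mean. HOXA13 and HOXC13 are higher in SMARCB1 Dox than in SMARCB1 DMSO, the other 7 are lower, and in the HOXB genes other than HOXB4 and HOXB13 both SMARCB1 groups lie above the GFP groups.

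The number of calls rested on each library of the SMARCB1 line. It fell when any 1 of them was left out, and so did the number of calls over all genes. Both were lowest without SMARCB1 Dox replicate 1. Whether the loss was particular to HOX genes was not tested. Leaving out a GFP library kept all called HOX genes. HOXA13 was not called without SMARCB1 DMSO replicate 1 (log2 fold change 0.55, adjusted p = 0.241) or without SMARCB1 Dox replicate 2 (0.77, adjusted p = 0.126). SMARCB1 DMSO replicate 1 had the highest mitochondrial share, and leaving out mitochondrially encoded genes before scaling gave the same 10 calls.

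The same comparison in the GFP line shows what Dox and a foreign protein do without SMARCB1. None of the 33 HOX genes was called by edgeR, nor by DESeq2 (2 at an unadjusted p under 0.05), and 0.0% of all genes were called in either direction, that is 0.0% higher and 0.0% lower. By edgeR there were 3 HOX genes, and 266 genes in all, at an unadjusted p under 0.05. The smallest of these p-values was that of HOXA13 (0.00096, adjusted p = 1), which had 67 and 77 counts with DMSO alone and 26 and 35 with Dox. Its log2 fold change was -1.14 with an SE of 0.297, and the groups did not overlap. The others were HOXB3 (-0.31, SE 0.125) and HOXD13 (-1.63, SE 0.745), of which HOXD13 had 8 and 9 against 1 and 4 counts. The median over the 33 genes was -0.031.

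Whether Dox acted differently in the 2 lines was tested directly. A difference was called for 1 of the 33 HOX genes, where 4.71% of all genes were called, 3.07% higher in the SMARCB1 line and 1.64% lower. This gene was HOXA13, with a difference of 2.04 on the log2 scale and an SE of 0.39 (edgeR, adjusted p = 0.00297). The value adds a change of 0.90 in the SMARCB1 line to one of -1.14 in the GFP line, which was not called by itself. It was called under all 16 alternatives, with estimates from 1.69 to 2.53 and adjusted p-values up to 0.0182. None of the 9 genes besides HOXA13 that were called in the SMARCB1 line differed between the lines after adjustment. HOXB8 came closest (-0.63, SE 0.206, adjusted p = 0.0908), followed by HOXC8 (-0.37, SE 0.12, adjusted p = 0.0927), HOXB4 (-0.78, SE 0.267, adjusted p = 0.114) and HOXB13 (-0.35, SE 0.129, adjusted p = 0.149). HOXB3 had close estimates in both lines (-0.37 and -0.31), and their difference was -0.06 with an SE of 0.17. Removing a GC trend gave 5 calls, with HOXB4, HOXB8, HOXB13 and HOXC8 added, all lower in the SMARCB1 line. With library totals HOXA13 was again the only HOX gene called, and the split over all genes was 670 higher and 159 lower in place of 489 and 261.

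**Figure D4:**
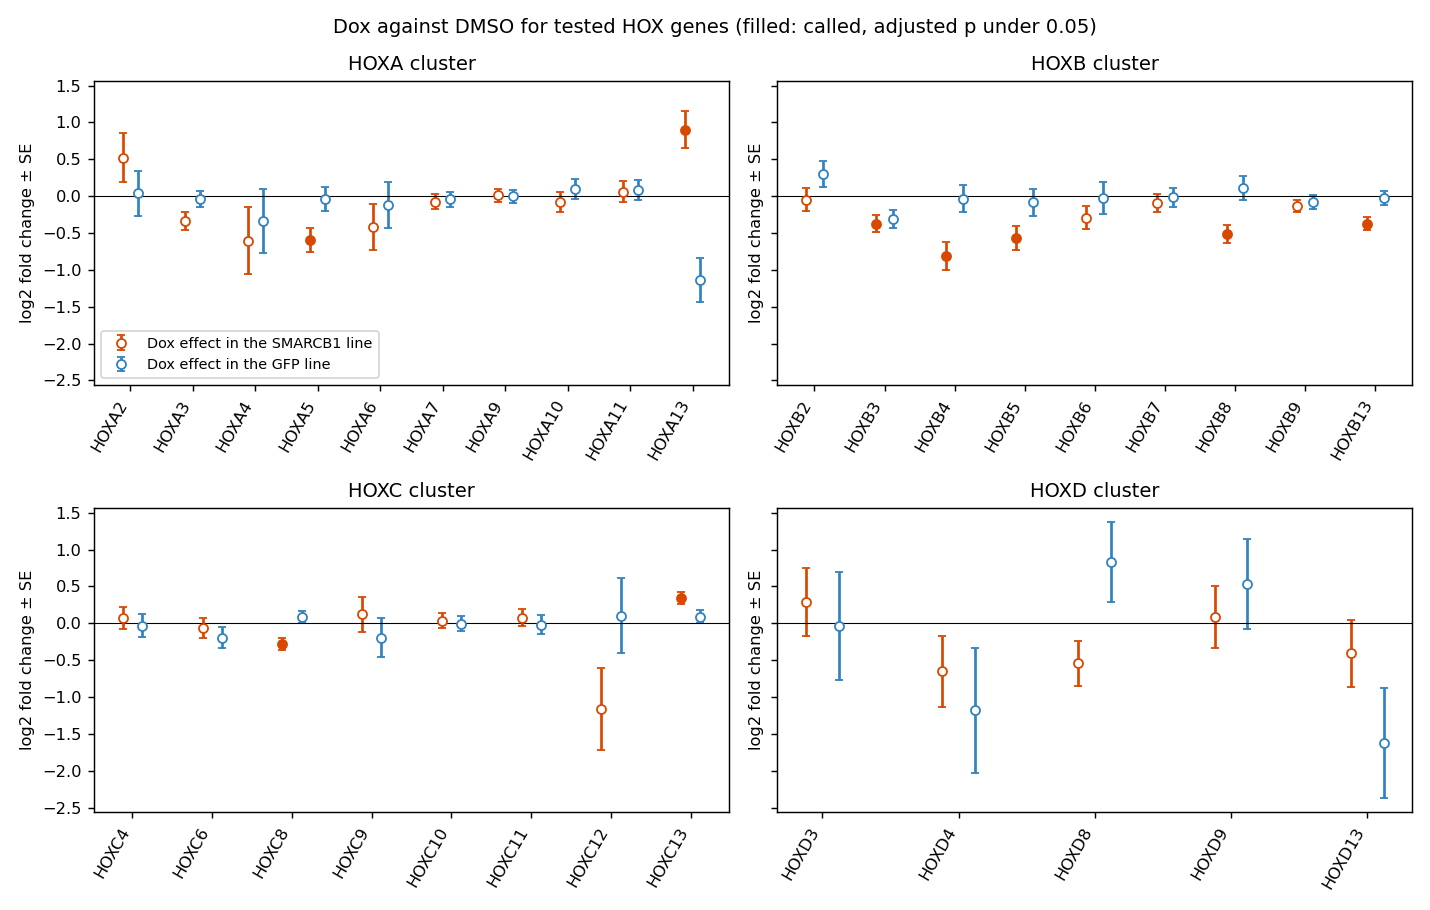
Log2 fold change of Dox against DMSO ± SE (vertical axis) for 32 tested HOX genes by cluster and number, in the SMARCB1 line (orange) and the GFP line (blue), with filled points for called genes. HOXA13 lies at 0.90 (orange) and -1.14 (blue), and all 9 HOXB genes are below 0 in the SMARCB1 line.

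The lines were also compared before induction, SMARCB1 DMSO with GFP DMSO, which shows what differs between them apart from Dox. More HOX genes were called than for Dox. Of 33 genes, 22 were called, 19 higher in the SMARCB1 line and 3 lower, where 32.0% of all genes were called, 16.3% higher and 15.7% lower. With library totals the split over all genes was 1732 higher and 3658 lower in place of 2600 and 2505, and that of the HOX genes 18 and 4. The median log2 fold change was 0.385 over the HOX genes and 0.015 over all genes (0.267 and -0.101 with library totals). SMARCB1 itself was low in both groups, with 10 and 21 counts in SMARCB1 DMSO and 0 in both GFP DMSO libraries. This difference was called by edgeR (log2 fold change 7.10, adjusted p = 9.5e-06), and its part in the HOX differences was not tested. The lines differed in fibroblast markers as well. These 5 genes summed to 451 to 488 CPM in SMARCB1 DMSO and 894 to 1040 in GFP DMSO, COL1A1 having 612 and 551 counts against 16283 and 21929, with LUM at 0 in all libraries and DCN at 0 or 1. COL1A1 accounts for most of this gap, since PDGFRB had a mean of 93.8 CPM in SMARCB1 DMSO and 133 in GFP DMSO, while COL1A2 went the other way (357 and 310 CPM). Of the rhabdoid line markers, VIM was higher in SMARCB1 DMSO (1280 against 707 CPM) and KRT8 (339 against 526) and KRT18 (268 against 392) were lower. Their part in the HOX differences was not tested. This comparison and the Dox effect in the SMARCB1 line share the SMARCB1 DMSO libraries.

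In HOXB, 7 of 9 tested genes were higher in the SMARCB1 line and HOXB13 was lower. HOXB9 had 15.9 and 15.8 CPM in GFP DMSO and 100.3 and 93.3 CPM in SMARCB1 DMSO, a log2 fold change of 2.61 with an SE of 0.088 (adjusted p = 3.54e-16). HOXB8 had 2.99 and 3.28 CPM against 21.0 and 24.2 CPM, a log2 fold change of 2.85 with an SE of 0.144 (adjusted p = 4.05e-13). HOXB6 had 2.46 and 2.11 CPM against 12.5 and 13.9 CPM, a log2 fold change of 2.53 with an SE of 0.182 (adjusted p = 2.2e-10). In all 3, which are close neighbours in the cluster, both SMARCB1 DMSO libraries were above every GFP library. HOXB5 followed with 3.08 and 2.92 against 8.37 and 9.68 CPM (1.59, SE 0.171), and HOXB2, a hindbrain gene, with 4.5 and 3.57 against 10.05 and 9.04 CPM (1.25, SE 0.166). HOXB7 had 8.05 and 8.49 against 17.5 and 18.8 CPM (1.13, SE 0.124), and HOXB3 10.4 and 11.5 against 21.8 and 23.0 CPM (1.03, SE 0.119). These 4 genes rank below HOXB8, HOXB9 and HOXB6 in the size of the difference. HOXB4, which lies between HOXB3 and HOXB5, was not called (0.37, SE 0.184, adjusted p = 0.142). HOXB13, at the far end, had 80.2 and 83.3 CPM in GFP DMSO and 60.9 and 60.6 CPM in SMARCB1 DMSO, a log2 fold change of -0.43 with an SE of 0.091 (adjusted p = 0.000848). In the order of the HOXB genes, those with the largest line difference, HOXB8 and HOXB9, thus come just before the only one that was lower. On the chromosome HOXB9 and HOXB13 are far apart, since HOXB9 ends at chr17:48626358 and HOXB13 starts at chr17:48724763. Among the genes between them are 2 short ones, PRAC1 and PRAC2, which had at most 9 and 42 counts in any library. The noncoding gene LINC02086, also of this region, had 165 and 148 counts in GFP DMSO and 67 and 74 in SMARCB1 DMSO.

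All 5 tested HOXD genes were higher in the SMARCB1 line, from a low base. HOXD3, HOXD4 and HOXD13 had at most 9 counts in any GFP library and passed the filter on low counts through the SMARCB1 line. Their place among the 5 thus depended on their counts in that line. A fit of the GFP groups alone tested 30 HOX genes in place of 33. HOXD8 had 8 and 12 counts in GFP DMSO and 87 and 150 in SMARCB1 DMSO, that is 0.237 and 0.313 CPM against 2.99 and 4.55 CPM, a log2 fold change of 3.75 with an SE of 0.413 (adjusted p = 2.29e-07). HOXD4, of the neck region, had 9 and 6 counts against 32 and 40, a log2 fold change of 2.45 with an SE of 0.573 (adjusted p = 0.00207). HOXD9 had 5 and 14 counts against 26 and 56, a log2 fold change of 2.30 with an SE of 0.522 (adjusted p = 0.00156). The groups were separate in each. HOXD3 and HOXD13 stayed under 1 CPM in both groups, with log2 fold changes of 2.06 and 1.66. HOXD1, which was not tested, had no count in the GFP line.

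HOXC and HOXA differed less. In HOXC, 5 of 8 tested genes were higher in the SMARCB1 line, with log2 fold changes from 0.38 (HOXC10) to 0.72 (HOXC11), and none was lower. HOXC13 and HOXC8 were among them, at 0.48 and 0.39. In HOXA, 2 of 11 genes were higher, HOXA9 (0.38) and HOXA7 (0.26), and 2 were lower. The call of HOXA7 was lost in 10 of 17 alternatives, among them DESeq2 and library totals. HOXA3, which acts in the thymus and parathyroid, had 22.2 and 20.2 CPM in GFP DMSO and 11.7 and 12.7 CPM in SMARCB1 DMSO, a log2 fold change of -0.79 with an SE of 0.112 (adjusted p = 8.05e-06). HOXA11, a gene of the developing kidney, had 11.6 and 9.46 CPM against 6.79 and 6.86 CPM, a log2 fold change of -0.63 with an SE of 0.142 (adjusted p = 0.00164). HOXA13 did not differ detectably between the DMSO groups (0.02, SE 0.268).

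**Figure D5:**
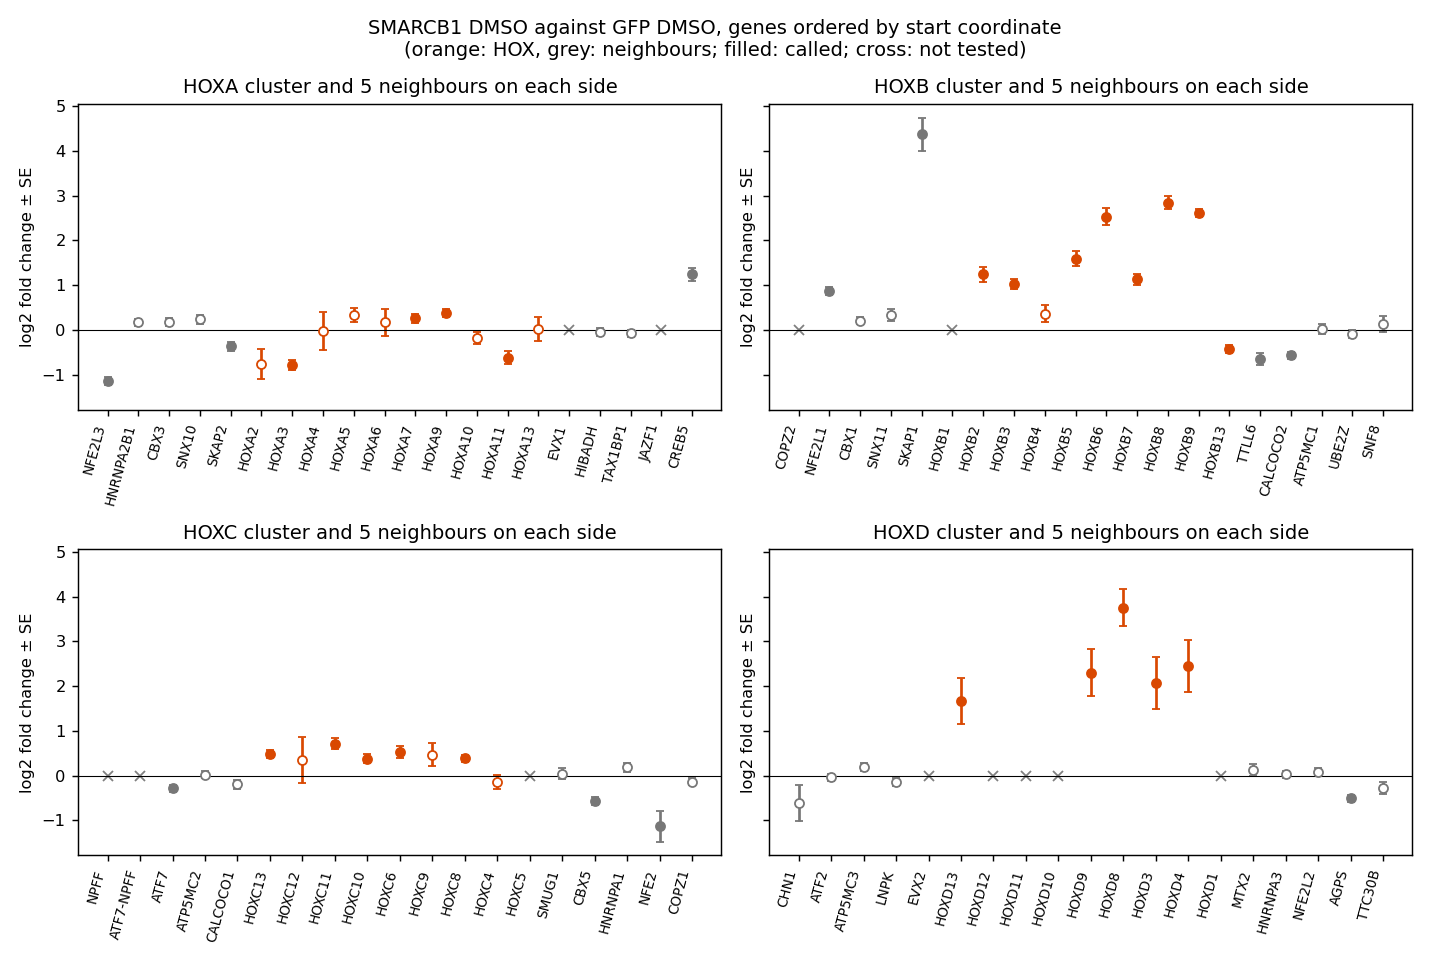
Log2 fold change ± SE (vertical axis) of SMARCB1 DMSO against GFP DMSO for 38 HOX genes (orange) and the 5 nearest named protein-coding neighbours on each side (grey), ordered by start coordinate, with filled points for called genes and crosses for genes not tested. The HOXB genes from HOXB2 to HOXB9 lie above 0, and HOXB13 and its neighbours TTLL6 and CALCOCO2 lie below. The tested HOXD genes lie above all their tested neighbours, but HOXD3, HOXD4 and HOXD13 passed the filter through the SMARCB1 line.

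The genes around the clusters were examined for the same differences. Of 40 neighbours, 34 were tested, and 11 were called between the DMSO groups, 3 higher and 8 lower, that is 32.4% against 32.0% of all genes. SKAP1, a signalling adapter of T cells that lies 98.3 kb beyond HOXB1, had 8 and 8 counts in GFP DMSO and 131 and 160 in SMARCB1 DMSO, a log2 fold change of 4.38 with an SE of 0.372 (adjusted p = 3.69e-09). On the other side of HOXB, TTLL6 (33.5 kb beyond HOXB13) and CALCOCO2 (102.3 kb) were lower, at -0.65 and -0.57. The nearest neighbour on each side of HOXB thus had the sign of the nearest tested HOX gene, HOXB2 on one side and HOXB13 on the other. Of the 10 HOXD neighbours, AGPS alone was called (-0.51), against 5 of 5 tested genes inside. Of these 5, HOXD3, HOXD4 and HOXD13 passed the filter through the SMARCB1 line. In SMARCB1 Dox against SMARCB1 DMSO, 3 neighbours were called, 8.8% against 14.0% of all genes. SKAP1 fell from 131 and 160 to 56 and 96 counts (log2 fold change -1.11, SE 0.269, adjusted p = 0.00681), NFE2L3, which lies 905.9 kb from HOXA, fell by 0.51, and CALCOCO2 rose by 0.40.

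Noncoding genes in and near the clusters, within 20 kb, numbered 65, of which 36 had no count in any library and 19 were tested. None was called for Dox in either line by edgeR or DESeq2, with 3 and 1 at an unadjusted p under 0.05 by edgeR in the SMARCB1 and GFP lines, and the median was -0.142 in the SMARCB1 line. Between the DMSO groups 6 were called, 5 higher and 1 lower, that is 31.6% against 32.0% of all genes. HAGLR, which lies in HOXD, had 3 and 6 counts in GFP DMSO and 94 and 78 in SMARCB1 DMSO (log2 fold change 4.44, SE 0.425, adjusted p = 2.51e-08). HOXD-AS2 had 3 and 1 against 30 and 33 counts, a log2 fold change of 4.10, and HOXB-AS3 23 and 24 against 176 and 162 counts, a log2 fold change of 3.06. These RNAs, named by the size of their difference, come from the clusters whose protein-coding genes differed most. The noncoding gene called lower, LINC02086, is of the HOXB region as well. Its log2 fold change was -0.94, and it was called in all 17 alternatives. HOTAIR, a HOXC transcript studied for its link to Polycomb, differed by 0.47 (SE 0.176, adjusted p = 0.0441) and HOXA10-AS by 0.39, calls that were lost in 9 and 4 of 17 alternatives. Where such genes overlap a HOX gene on the other strand, their reads cannot be told apart without knowledge of the strand setting.

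HOX proteins bind DNA together with TALE proteins. Of 11 TALE genes, 8 were tested, and 1 was called in each of 2 comparisons, that is 12.5% against 14.0% of all genes for Dox in the SMARCB1 line and 32.0% between the DMSO groups. PKNOX1 had 31.3 and 30.9 CPM in SMARCB1 DMSO and 39.2 and 41.2 CPM in SMARCB1 Dox (log2 fold change 0.37, SE 0.087, adjusted p = 0.00569), and PBX3 differed between the DMSO groups by 0.42. None was called in the GFP line or for the difference by edgeR or DESeq2, with 0 and 1 at an unadjusted p under 0.05. Of 15 homeobox genes related to HOX, 5 were tested. MEOX1, a gene of the somites, had 48.6 and 51.6 CPM in SMARCB1 DMSO and 24.8 and 32.5 CPM in SMARCB1 Dox (-0.81, SE 0.105, adjusted p = 1.34e-05), and EN2, of the midbrain, rose by 0.74. GSX2, a forebrain gene, had 19 and 24 counts in GFP DMSO and 0 and 1 in SMARCB1 DMSO.

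Of 36 chromatin and retinoid regulators of HOX genes, 32 were tested, and 5 were called for Dox in the SMARCB1 line, 4 higher and 1 lower, that is 15.6% where 14.0% of all genes were. AFF1, a partner of the KMT2A methyltransferase in leukemia fusions and in transcription elongation, had 117.4 and 115.6 CPM in SMARCB1 DMSO and 220.7 and 235.4 CPM in SMARCB1 Dox (0.97, SE 0.077, adjusted p = 2.93e-08). BMI1, a Polycomb repressive complex 1 subunit, had 395.1 and 388.3 CPM against 232.2 and 269.6 CPM (-0.64, SE 0.085, adjusted p = 1.66e-05). CRABP2, which binds retinoic acid in the cytoplasm, and RXRA and RARA, nuclear receptors of its pathway, rose by 0.36, 0.36 and 0.33, but the calls of RXRA and RARA were lost in 5 and 12 of 17 alternatives. The genes of Polycomb repressive complex 2 in this list, EZH1, EZH2, SUZ12 and EED, were not called, with log2 fold changes of -0.29, 0.02, -0.16 and -0.09. Between the DMSO groups 10 regulators were called, 31.2% against 32.0% of all genes, of which AFF1 (0.95) and PHC2 (0.79) had the largest differences.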

How the data were processed

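Total RNA of 8 G401 libraries was analysed, 2 in each of 4 groups taken from the sample titles. The authors deposited unnormalised read counts for each gene, from STAR alignment and HTSeq counting (exons, intersection-strict mode and GENCODE v42 per the study's methods, build hg38 per the submitters' processing notes). Tool versions and the strand option were not given in the sources used here. The sample labels name a ribosome profiling library kit and the study's methods a directional RNA kit, so the library chemistry is uncertain. The 5 entries that name no gene held 27.0% to 29.3% of the reads and were left out. Depth was 29632090 to 37597477 assigned counts, so that 3 counts, used as the limit for a count of 0, equal 0.0782 to 0.103 CPM.

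Symbols, positions and exon lengths came from GENCODE v44 (GRCh38), matched by Ensembl identifier for 62625 of 69215 genes and all 39 HOX genes. The 15931 genes that passed the default filter of edgeR 4.0.16 (R 4.3.3) were tested by quasi-likelihood after TMM scaling, in 1 fit of the 8 libraries with a mean for each group. A call was a Benjamini-Hochberg adjusted p under 0.05, adjusted over all tested genes separately in each of 4 comparisons. SE was the absolute log2 fold change divided by the square root of F. CPM used TMM factors. DESeq2 1.42.0, which the study's methods name, was an alternative, besides other scalings, no filter, fewer groups, the replicate number as a block, removal of a GC trend (loess, span 0.3), no mitochondrial genes and leaving out each library. The steps were tested on simulated counts.

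Per-library values and tests are given for called HOX genes that averaged at least 1 CPM in their higher group, at most 10 per comparison by absolute log2 fold change. Of the other lists, at most 6 called genes per comparison were named by the same order, and values of other genes were added after they were seen. Members, lists and rules were chosen with earlier results of these data known. A member whose own values are not reported here stays in the counts and sums.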

Additional observations from a re-analysis of the deposited data

Results flagged for a closer look

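These genes were flagged because the effect of Dox differed between the SMARCB1 line and the GFP line in a test of the difference itself (edgeR, Benjamini-Hochberg). Differences are on the log2 scale, SMARCB1 line minus GFP line. HOXA13 differed by 2.04, from a rise of 0.90 in the SMARCB1 line and a value of -1.14, not called, in the GFP line. AFF1 differed by 0.953, with 0.02 in the GFP line. CALCOCO2, a neighbour of HOXB13, differed by 0.436. MEOX1 differed by -0.816, BMI1 by -0.65 and NFE2L3 by -0.522. For AFF1, CALCOCO2, MEOX1, BMI1 and NFE2L3 the GFP line values lay between -0.04 and 0.02. The differences of CALCOCO2 and NFE2L3 were not called in 6 of 16 alternatives each, and the other 4 were called in all 16.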

How the results depend on the processing

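For Dox in the SMARCB1 line, 10 HOX genes were called. Scaling to library totals gave 5 calls, with HOXB3, HOXB5, HOXB13 and HOXC8 among the calls lost. Leaving out each library in turn gave 3 to 10, the lowest without SMARCB1 Dox replicate 1. A lone remaining library is assumed to vary like the other groups. All other alternatives gave 9 to 12 calls. In the GFP line every alternative gave 0. For the difference between the Dox effects, with 1 call, removing a GC trend gave 5, and leaving out each library gave 1 or 2, with HOXD8 added without GFP Dox replicate 2 and HOXB13 added without SMARCB1 Dox replicate 2. Between the DMSO groups, with 22 calls, the alternatives gave 17 to 23. No called gene of the HOX or other lists changed sign in any alternative, and the cause of a lost call was not tested.

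Libraries share only a replicate number, which the labels tie to no batch or culture. Deviations from the group means correlated between equal numbers at 0.148 for SMARCB1 DMSO and SMARCB1 Dox, 0.09 for GFP DMSO and GFP Dox and 0.031 for the DMSO groups. With the replicate block, HOX calls were 11 for Dox in the SMARCB1 line, 0 in the GFP line, 4 for the difference (HOXB8, HOXB13 and HOXC8 added) and 22 between the DMSO groups. Over all genes the replicate block gave 3149 calls in place of 2234 for Dox in the SMARCB1 line and 1282 in place of 750 for the difference. The replicate block with removal of a GC trend gave 12, 0, 5 and 23.

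With 2 libraries per group, small changes of low genes such as HOXD3 could not be resolved. Nor was HOXC12 called for Dox in the SMARCB1 line, although its log2 fold change of -1.16 was the lowest of the 33. It had 13 and 21 counts in SMARCB1 DMSO and 6 and 11 in SMARCB1 Dox. Of 38 HOX genes with a count, the level per kb of 14 moved by more than the largest SD of a group when exon bases shared with other genes were left out, among them HOXA7 (38.8 RPKM) and HOXA9 (23.7). With genes of the same strand alone, a choice added after seeing the data, 6 did.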
